A study of Homo sapiens with 29 samples.

Results

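RNA was measured in 8 PC9 lines that carry a kinase-competent AXL, each treated for 24 h with 1 μM erlotinib alone (E) or with erlotinib and 300 ng/mL AF154 (EA). These are 16 of the 29 libraries of the series, 8 with E and 8 with EA, taken by the line and treatment in their labels. The E and EA libraries of the kinase-dead line (KD) stand beside them as a control, which makes 18. PC9 is an epithelial line from a human lung adenocarcinoma with an activating EGFR mutation, erlotinib inhibits the EGFR kinase, and AF154 is an antibody that activates AXL. PAR is the parental line with its own AXL gene. The other 7 lines were made from PC9 cells whose AXL had been knocked out with CRISPR-Cas9 and which then received AXL from a lentivirus, either the wild type (WT) or a form in which an intracellular tyrosine is replaced by phenylalanine (Y634F, Y643F, Y698F, Y726F, Y750F or Y821F), and KD was made in the same way with a kinase-dead AXL. Transduced cells were sorted for GFP and grown as populations, and the study states that only a minority of the cells in them stained for AXL, so each of these libraries also holds cells with little or no AXL. PAR therefore differs from the other 7 lines by the knockout, the virus and the source of AXL together. There was 1 library per line and treatment, so the lines served as replicates and every p-value measures the spread between lines.

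AXL is a receptor tyrosine kinase of the TAM family, with TYRO3 and MERTK, and its ligand is GAS6. In EGFR-mutant lung cancer cells it is known as a bypass receptor that can keep survival and migration signals running when EGFR is blocked. Erlotinib in such cells stops cells before DNA replication, lowers ERK and PI3K output, and lets FOXO factors raise genes such as the PI3K brake PIK3IP1 and death genes such as BMF.

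The question was which RNAs move when AXL is activated on top of erlotinib, above all outside the cell cycle and among the genes that fall. Values are TPM, a share of a library's transcripts corrected for transcript length and scaled to a fixed total, summed over the transcripts of a gene, and changes are EA minus E of log2(TPM + 1) within a line. Since that total is the same in every library, the reads behind a value are not known. The 7 epithelial markers summed to 10840 to 11620 TPM with E and 10310 to 11200 TPM with EA. All 6 neuroendocrine markers were under 1 TPM in all 16 libraries, as were COL1A2, COL3A1 and LUM of the 7 fibroblast markers, VWF, KDR, CLDN5 and TEK of the 6 endothelial markers, and PTPRC, CD3E and CD14 of the 7 leukocyte markers. The lists summed to 38.0 to 62.6 TPM (fibroblast), 2.40 to 7.10 TPM (endothelial) and 55.5 to 79.7 TPM (leukocyte) with E, and to 35.8 to 73.2, 2.71 to 6.85 and 58.0 to 83.1 TPM with EA. Both libraries of PAR and one of Y821F stood apart in the share of TPM on the 13 mitochondrially encoded genes. It was 17.4% in PAR with E, 16.4% in PAR with EA and 17.4% in Y821F with EA, against 12.3% to 14.2% in the other 7 lines with E, and 13% to 14.4% with EA in the 6 lines other than PAR and Y821F. The share averaged 13.6% ± 1.63 with E and 14.5% ± 1.59 with EA (SD, n = 8 lines) and was higher with EA in 6 of 8 lines, a difference that the exact two-sided sign-flip permutation test did not tell from 0 (p = 0.219, with 0.00781 as the least possible). Their part in the results was not tested beyond leaving out each line, PAR and Y821F included, and rescaling without these genes.

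Adding AF154 raised more genes than it lowered, and each change was small. Of 9085 genes whose mean over all 29 libraries reached 10 TPM, 214 differed between EA and E at an adjusted p under 0.05 (2.36%), from limma with Benjamini-Hochberg adjustment and a block for line. Of these, 171 were higher (1.88%) and 43 lower (0.473%) with EA. Outside 5 lists of cell cycle genes, 86 of 8775 genes were higher (0.98%) and 41 lower (0.467%), so that 85 of the 171 rises (49.7%) and 2 of the 43 falls (4.65%) lay on those lists, which hold 3.41% of the genes tested. Since the lists were written with earlier results of these data known, these shares were not tested. CDKN2B, an inhibitor of cell cycle kinases, was on none of these lists and counts among the 41. The median change was -0.24 over the 43 genes that fell, 0.23 over the 86 that rose outside the cell cycle lists and 0.016 over all genes tested, and the changes of the fallers ran from 0.15 to 0.44 in size. In bulk RNA, fewer cells with a transcript and less of it per cell cannot be told apart. With libraries centred on their medians, 133 genes rose and 72 fell, against 171 and 43, so the share of higher genes among those called moved from 79.9% to 64.9%. All 43 fallers and 58 of the 86 risers outside the cell cycle were still called. At an unadjusted p under 0.05 stood 1895 genes, 20.9% of those tested.

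The direction of these changes was shared by most lines. The genes were called by a test on these same 8 differences, which favours a shared direction. The counts of direction below, also with a line left out, therefore describe the called genes and give no separate support. Of the 43 fallers 29 were lower in all 8 lines, and of the 86 risers outside the cell cycle 66 were higher in all 8, against 141 and 360 of all 9085 genes (1.55% and 3.96%). Of the 86 risers 3 (LRP8, MND1 and CHN1), and of the 85 on the cell cycle lists 16, had a mean under 10 TPM with E. With the mean taken over the 16 libraries compared, 9009 genes were tested, of which 148 rose, 77 of them outside the cell cycle lists, and 40 fell. The levels themselves overlapped. A single faller, ZNF524, had all 8 EA libraries below all 8 E libraries, and 5 risers outside the cell cycle (HPRT1, LDHA, ME1, CCT5 and RAP1GDS1) had all 8 EA libraries above all 8 E libraries, where the counts over all genes were 1 (0.011%) and 23 (0.253%). The fall was largest in PAR for 17 of the 43 genes and in Y821F for 15, and the rise outside the cell cycle was largest in PAR for 34 of the 86 and in Y821F for 16. These counts have no share over all genes beside them. PAR and Y821F also had the widest spread over all genes tested, with quartiles of -0.11 and 0.21 and of -0.19 and 0.17. Whether the counts are particular to the called genes was therefore not tested. With a line left out, all 43 and all 86 kept their direction, but fewer passed the threshold. Of the 43 fallers 6 passed without PAR, 13 without WT, 0 without Y634F, 0 without Y643F, 5 without Y698F, 25 without Y726F, 13 without Y750F and 9 without Y821F. For the 86 risers these counts were 18, 35, 3, 5, 23, 57, 21 and 31. The adjusted p of the fallers lay between 0.0553 and 0.131 without Y634F and between 0.0551 and 0.12 without Y643F.

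**Figure D1:**
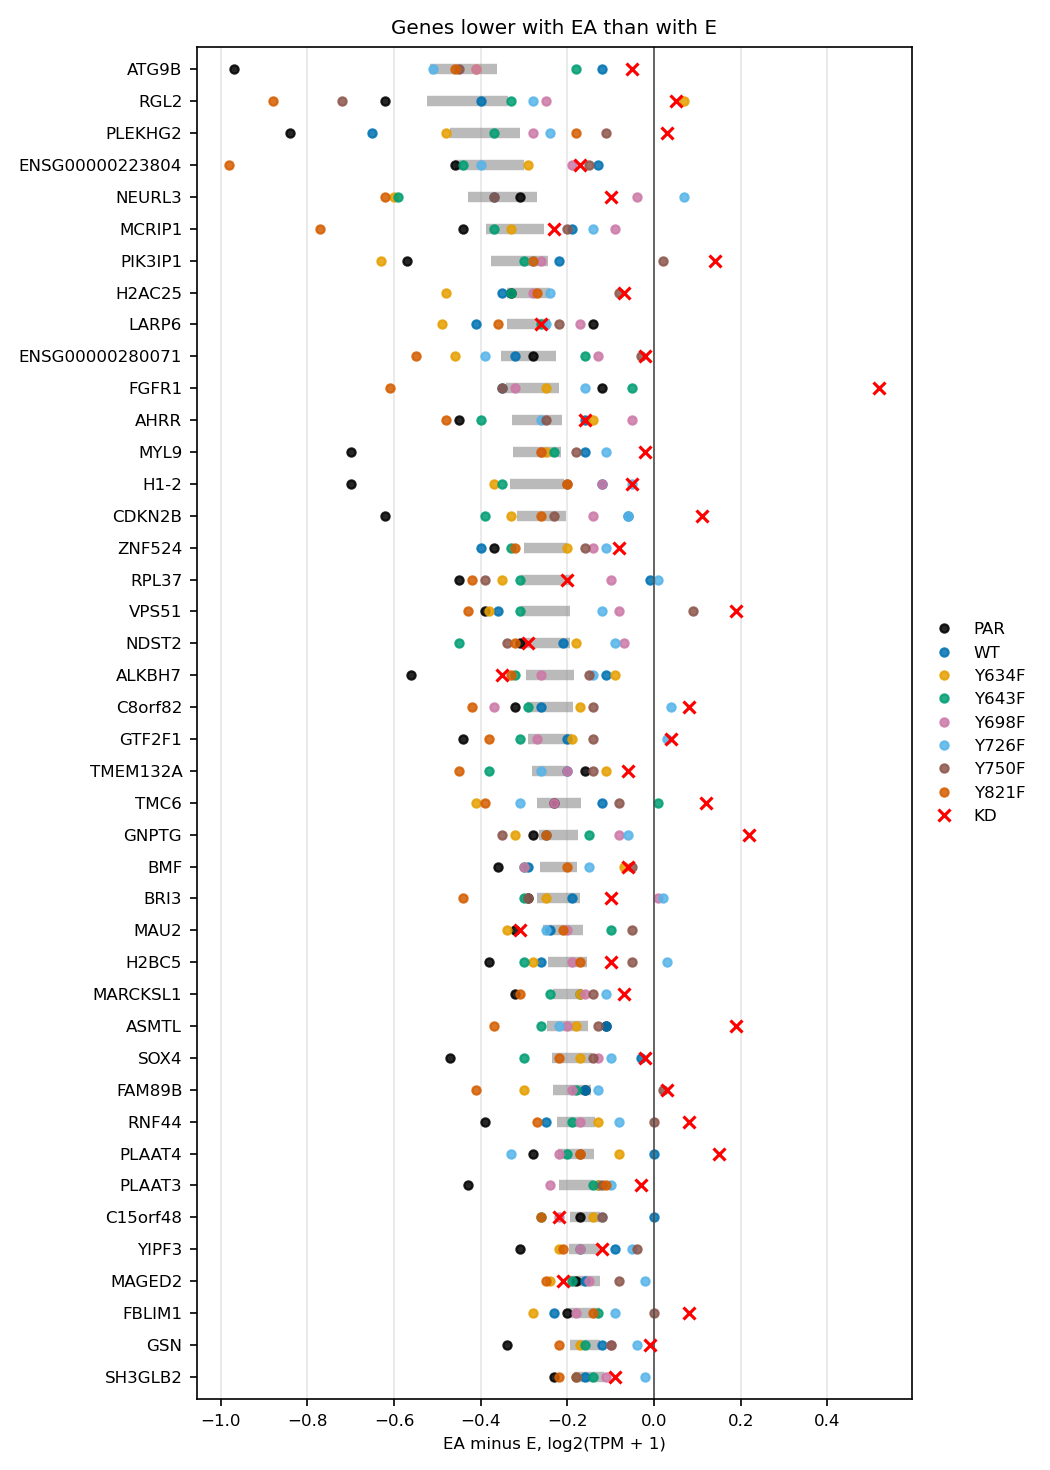
Change in log2(TPM + 1), EA minus E (horizontal axis), of 42 of the 43 genes lower with EA; each dot is a line, the grey bar is the mean of the 8 lines ± its standard error from limma, and the red cross is KD. Most dots lie left of 0, while the KD crosses lie on both sides. PAR or Y821F, the lines with the widest spread over all genes, is farthest left for 32 of the 42 genes shown.

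Brakes of growth and survival that stood far higher with E than untreated were among the genes that fell with AF154. BMF (ENSG00000104081, chr15:40087890-40108892, minus strand), a BH3-only protein that promotes apoptosis, was at 71.6 to 95.8 TPM with E (median 81.8) and at 60.2 to 82 TPM with EA (median 69.7), and its untreated level in these lines was 4.48 ± 2.0 TPM (mean ± SD, n = 8). Each line was lower with EA than with E while the ranges overlapped, and the mean of the 8 changes was -0.22 (standard error 0.043, adjusted p = 0.0339 from limma). PIK3IP1 (ENSG00000100100, chr22:31281593-31292534, minus strand), which restrains PI3K, was at 31.1 to 52.6 TPM with E (median 39.9), 26.3 to 34.7 TPM with EA (median 32.7) and 2.60 ± 0.663 TPM untreated. It changed by -0.31 (standard error 0.066, adjusted p = 0.0375) and was lower in 7 of 8 lines, with 0.02 in Y750F. CDKN2B (ENSG00000147883, chr9:22002903-22009363, minus strand) encodes p15, an inhibitor of CDK4 and CDK6. It was at 112 to 173 TPM with E (median 149) and 72.9 to 155 TPM with EA (median 129), against 14.3 ± 2.26 TPM untreated. Its change was -0.26 (adjusted p = 0.041), from -0.62 in PAR to -0.06 in WT, and PAR had the lowest level in both treatments. All 3 genes thus stayed far nearer to their level with E than to the untreated one. In KD their changes were -0.06 for BMF, 0.14 for PIK3IP1 and 0.11 for CDKN2B. With a line left out, the number of these 3 genes past the threshold ran from 0 without PAR, Y634F, Y643F, Y698F or Y821F (adjusted p from 0.0559 to 0.114) to 2 without Y726F or Y750F. BMF was the only called member of 31 tested genes of the BCL2 family and apoptosis (median change -0.02), and PIK3IP1 the only one of 25 tested targets of FOXO (median -0.05), with all genes at 0.016.

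**Figure D2:**
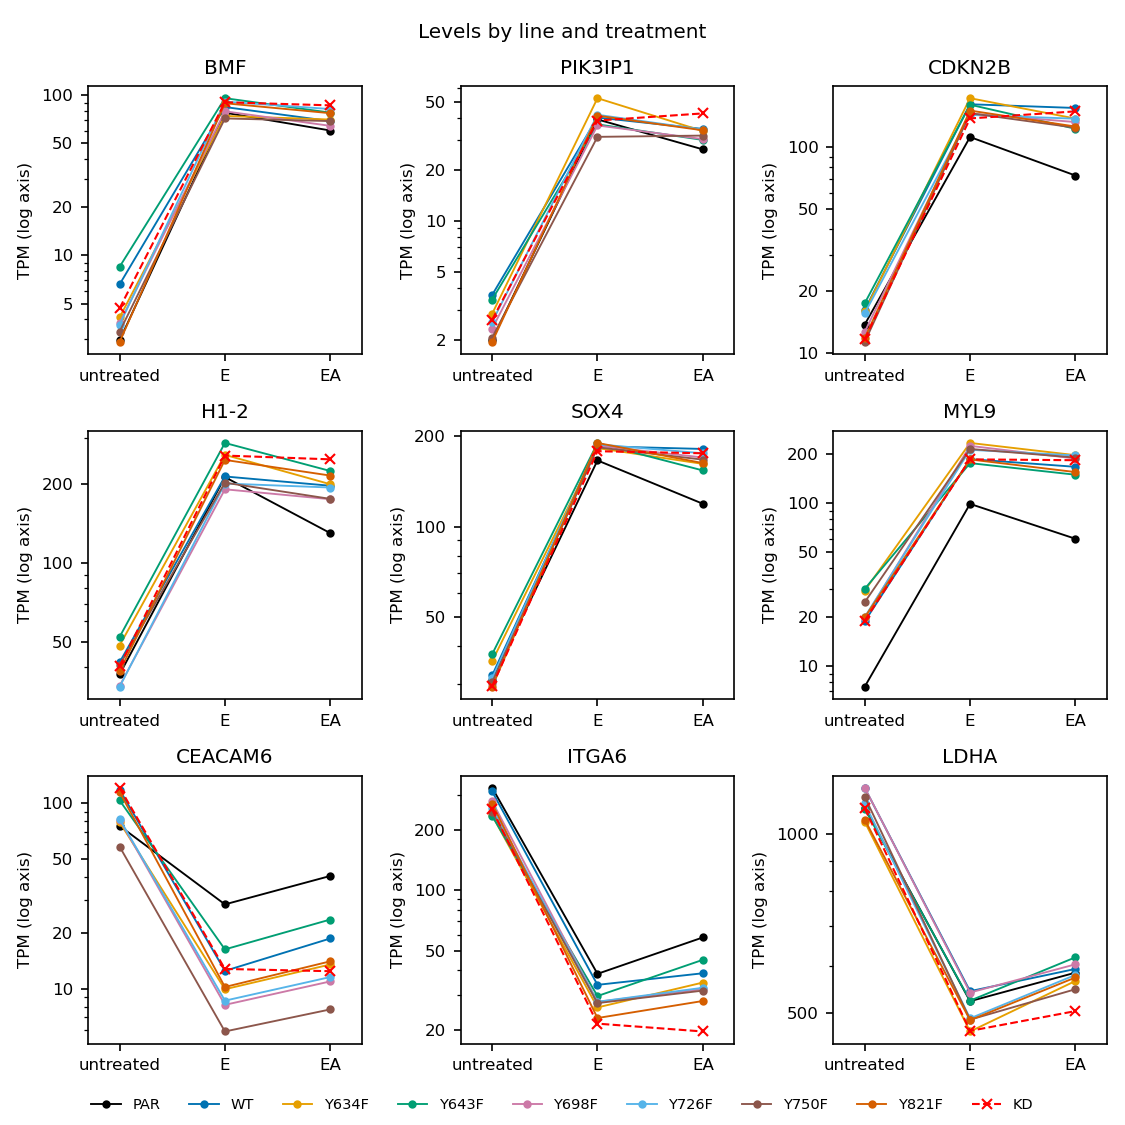
TPM on a log axis of 6 genes that fell and 3 that rose with EA, untreated, with E and with EA, with a line joining the values of each cell line and KD dashed in red. BMF, PIK3IP1, CDKN2B, H1-2, SOX4 and MYL9 are lowest untreated and CEACAM6, ITGA6 and LDHA highest untreated, and the step from E to EA is small beside the step from untreated to E.

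Histone genes gave 3 of the falls, while no gene of the other cell cycle lists fell. Those lists do not hold CDKN2B, the inhibitor of cell cycle kinases that fell. H1-2 (ENSG00000187837, chr6:26055787-26056428, minus strand), a linker histone that GENCODE names HIST1H1C, was at 191 to 286 TPM with E and 129.9 to 224 TPM with EA (medians 213 and 195), with 40.9 ± 6.56 TPM untreated. It changed by -0.27 (standard error 0.062, adjusted p = 0.0484), from -0.70 in PAR to -0.05 in Y726F. H2BC5, a core H2B, averaged 205 ± 26.7 TPM under E and 177 ± 11.7 TPM under EA, a change of -0.20 (adjusted p = 0.0433). H2AC25, a core H2A that was not on the list, went from 29.1 ± 2.85 to 23.6 ± 2.08 TPM, a change of -0.29 (adjusted p = 0.0194), lower in 8 of 8 lines. Histone genes of this type mostly make RNA without a poly(A) tail during DNA replication, and some also make polyadenylated RNA in resting cells. The libraries were poly(A) libraries, but TPM summed per gene cannot tell these kinds of RNA apart. Untreated levels of H2BC5 and H2AC25 were 32.7 ± 7.07 and 5.12 ± 0.70 TPM. Of 18 histone genes tested 2 fell and none rose, and the median was -0.08 in the 8 lines and -0.05 in KD. The other 4 cell cycle lists held 85 different genes that rose and none that fell, with list medians from 0.16 to 0.26. The promoters of H1-2 and H2AC25 are shown because both hold the CCAAT box that NF-Y is known to bind, as do 36.8% of the promoters of all genes tested. Promoters were taken from RefSeq (GRCh38.p14) as 250 bases before to 50 after a gene's start, and the stretch printed holds the match in capitals, on either strand, with up to 30 bases on each side, along the gene's strand and before its start. A match is letters only and shows no binding.
H1-2 (chr6:26056493-26056557, minus strand): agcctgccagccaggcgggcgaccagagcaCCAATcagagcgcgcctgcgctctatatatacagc
H2AC25 (chr1:228457905-228457969, minus strand): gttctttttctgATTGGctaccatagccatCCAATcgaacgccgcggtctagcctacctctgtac
In KD the 3 histone genes changed by -0.05, -0.10 and -0.07. Histone genes have close copies whose reads could be divided between them by the quantification. The number of the 3 past the threshold with a line left out ran from 0 without Y634F or Y643F (adjusted p from 0.0571 to 0.131) to 3 without Y726F.

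Genes of the actin skeleton and of adhesion made up 5 of the falls, a grouping made after the values were seen. MYL9, the regulatory light chain of non-muscle and smooth muscle myosin, was at 99.2 to 235 TPM with E and 60.6 to 198 TPM with EA (EA median 178), against 21.2 ± 7.06 TPM untreated. PAR was the lowest line with either treatment and had by far the largest change, -0.70, where the other 7 lines ran from -0.26 to -0.11, and the mean change was -0.27 (standard error 0.056, adjusted p = 0.0371). PLEKHG2, a guanine nucleotide exchange factor, changed by -0.84 in PAR to -0.11 in Y750F and fell from a median of 26.8 to 21.9 TPM. GSN, the actin-severing protein gelsolin, went from 306 ± 33.3 to 274 ± 14.8 TPM (change -0.16, adjusted p = 0.0439). FBLIM1, which links filamin to adhesions, changed by -0.16, and MARCKSL1, an actin-binding relative of MARCKS, by -0.20 (adjusted p = 0.0443 and 0.0194). MARCKSL1 was lower in 8 of 8 lines within a narrow span, from -0.32 in PAR to -0.11 in Y726F, and passed the threshold in 6 of 8 fits with a line left out. In the list of actin cytoskeleton genes the calls went both ways. Of 53 tested, MYL9, PLEKHG2 and GSN fell, DIAPH3 rose, and the median was -0.003. Of 46 tested genes of focal adhesions, integrins and laminins 0 fell, and ITGA6 rose. In KD the 5 genes changed by -0.02, 0.03, -0.01, 0.08 and -0.07 in the order above. With a line left out, the count of the 5 past the threshold went from 0 without Y634F or Y643F (adjusted p from 0.0571 to 0.13) to 4 without Y726F.

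Receptors, signalling proteins, ubiquitin ligases and an enzyme of heparan sulfate gave 6 more, a broad grouping made after the values were seen. The share of such genes among all genes tested was not counted. FGFR1, a receptor tyrosine kinase that is known as another bypass receptor in EGFR-mutant cells, was at 19.4 to 44.2 TPM with E and 17.8 to 37.1 TPM with EA (medians 36.2 and 28.8). It was lower in 8 of 8 lines, from -0.61 in Y821F to -0.05 in Y643F, with a mean change of -0.28 (standard error 0.061, adjusted p = 0.0406), and its untreated level was 29.4 ± 4.10 TPM. KD moved the other way, with 24.6 TPM under E and 35.6 TPM under EA, a change of 0.52, the largest opposite change in KD among the fallers reported here. FGFR1 was the only called gene of 10 bypass receptors tested. RGL2, an exchange factor for Ral GTPases, changed by -0.43 (adjusted p = 0.0383) and was lower in 7 of 8 lines, from -0.88 in Y821F to 0.07 in Y634F. NEURL3, a ubiquitin ligase, went from 37.6 ± 11 to 29 ± 7.73 TPM (change -0.35, lower in 7 of 8 lines), with 3.87 ± 1.31 TPM untreated. RNF44, also of the ring finger ligases, changed by -0.18. MCRIP1, a partner of a transcriptional corepressor that MAP kinase regulates, changed by -0.32, from -0.77 in Y821F to -0.09 in Y698F. NDST2, which modifies heparan sulfate, changed by -0.25, and by -0.29 in KD. Leaving out a line, the number of these 6 past the threshold ran from 0 without PAR, WT, Y634F, Y643F, Y698F or Y750F (adjusted p from 0.0508 to 0.118) to 3 without Y726F.

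A further 5 fallers act in transcription or on chromatin, a grouping made after the values were seen. The share of such genes among all genes tested was not counted. Of 58 tested genes on the list of chromatin modifiers 0 fell and SUV39H2 rose. ZNF524 (ENSG00000171443, chr19:55600022-55603138, plus strand), a zinc finger protein, had the cleanest separation: 31.4 to 34.6 TPM with E against 24.7 to 30.1 TPM with EA (medians 33 and 27.3), with no overlap between the groups. It was at 19.4 ± 1.65 TPM untreated and changed by -0.25 (standard error 0.049, adjusted p = 0.0323). SOX4, a transcription factor linked to mesenchymal programmes, went from 183 ± 7.64 to 161 ± 19 TPM, and from -0.47 in PAR to -0.03 in WT across the lines (mean -0.19, adjusted p = 0.0489). Its untreated level was 32.2 ± 2.94 TPM. SOX4 was the only called gene of 32 tested in the list of mesenchymal genes, whose median was -0.01. AHRR, the repressor of the aryl hydrocarbon receptor, was at 28.2 to 39 TPM with E and 20.4 to 31.3 TPM with EA, against 5.60 ± 1.55 TPM untreated, and changed by -0.27 (adjusted p = 0.0366), lower in 8 of 8 lines. GTF2F1, a subunit of the general factor TFIIF, changed by -0.24, and MAU2, part of the cohesin loader, by -0.21. In KD these 5 changed by -0.08, -0.02, -0.16, 0.04 and -0.31, so that MAU2 moved there by more than in any of the 8 lines but PAR and Y634F. The number past the threshold with a line left out ran from 0 without PAR, Y634F, Y643F or Y821F (adjusted p from 0.0559 to 0.12) to 2 without WT or Y726F.

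A further 8 fallers are known for roles in membrane traffic, lysosomes or lipid handling, a grouping made after the values were seen. ATG9B, a membrane protein of autophagosome formation, was low untreated (3.07 ± 1.89 TPM), was at 21.5 to 49 TPM with E and at 19.1 to 43.1 TPM with EA, and was lower in every line, from -0.97 in PAR to -0.12 in WT. It was the only one called of 52 autophagy and lysosome genes tested, and the list median was 0.001. Its promoter held the single AP-1 match (TGANTCA, capitals) among the 31 fallers with a promoter entry, against 4.17% of all genes.
ATG9B (chr7:151024508-151024574, minus strand): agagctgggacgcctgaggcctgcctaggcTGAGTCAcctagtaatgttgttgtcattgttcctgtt
VPS51, of the complexes that tether endosome-derived vesicles, was at 167 to 216 TPM with E and 127 to 195 TPM with EA and changed by -0.25 (adjusted p = 0.0443), lower in 7 of 8 lines, but by 0.19 in KD. GNPTG, a subunit of the enzyme that tags hydrolases for the lysosome, changed by -0.22, lower in 8 of 8 lines, and by 0.22 in KD. PLAAT3 and PLAAT4, related phospholipases and acyltransferases, both changed by -0.18 (adjusted p = 0.0433 and 0.0439), and in KD by -0.03 and 0.15. The Golgi protein YIPF3 changed by -0.16, the endophilin SH3GLB2 by -0.15 and BRI3 by -0.22. Past the threshold with a line left out were from 0 without Y634F, Y643F or Y698F (adjusted p from 0.0512 to 0.13) to 5 without Y726F of the 8.

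The remaining 12 fallers were not grouped. Of all 43 fallers 8 were on one of 34 lists of genes outside the cell cycle, 2 on that of histones and 33 on none. LARP6, an RNA-binding protein known for binding collagen mRNA, was at 22.4 to 49.3 TPM with E and 20.2 to 39.3 TPM with EA and fell in all 8 lines (change -0.29, standard error 0.049, adjusted p = 0.0194), and KD changed by a like amount, -0.26. TMEM132A changed by -0.24 (adjusted p = 0.021), from -0.45 in Y821F to -0.11 in Y634F, and both passed in 6 of 8 fits with a line left out. The ribosomal protein gene RPL37 was at 1729 to 2357 TPM with E and 1375 to 2378 TPM with EA, an overlap over most of the range, and changed by -0.25 (adjusted p = 0.044), -0.20 in KD. The mitochondrial proteins ALKBH7 and C15orf48 changed by -0.24 and -0.16, and in KD by -0.35 and -0.22. Smaller falls were those of C8orf82 (-0.24), TMC6 (-0.22), ASMTL (-0.20), FAM89B (-0.19) and MAGED2 (-0.16). ENSG00000280071, which GENCODE names GATD3B, changed by -0.29 and has a near-identical copy, and ENSG00000223804 is annotated as a transcribed pseudogene and changed by -0.38, so both values are uncertain. With a line left out the number of these 12 past the threshold ran from 0 without Y634F or Y643F (adjusted p from 0.0571 to 0.131) to 5 without WT or Y726F.

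Among the rises outside the cell cycle lists, CEACAM6 (ENSG00000086548, chr19:41750977-41772208, plus strand), a cell surface adhesion protein, had the narrowest span across the lines among the 20 largest. It was at 5.88 TPM in the lowest and 28.5 TPM in the highest line with E (median 10.1) and at 7.73 and 40.5 TPM with EA (median 13.8). The ranges overlapped since the lines differ in level, PAR being highest and Y750F lowest with either treatment, but each line rose, from 0.34 in Y750F to 0.54 in WT. The mean change was 0.44 (standard error 0.055, adjusted p = 0.00887), and it passed in all 8 fits with a line left out. KD stood at 12.8 TPM with E and 12.4 TPM with EA, a change of -0.04, outside the range of the 8 lines. Its untreated level was 89.1 ± 20.9 TPM. CEACAM6 has close relatives in its family among which reads could be divided.

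Other rising genes of the cell surface and epithelium had wider spans or smaller rises. ITGA6 (ENSG00000091409, chr2:172427354-172506282, plus strand), the integrin chain that binds laminin with ITGB4, was at 23.1 to 38.3 TPM with E and 28 to 58.2 TPM with EA, against 269.8 ± 33.5 TPM untreated. It rose in 8 of 8 lines by 0.19 in WT to 0.59 in PAR (mean 0.33, standard error 0.059, adjusted p = 0.0236), with -0.12 in KD. ANO1, a calcium-activated chloride channel, rose in 7 of 8 lines (mean 0.40, adjusted p = 0.0351), with 0.23 in KD. KRT6A, a keratin of stressed and proliferating epithelia, reached 99.2 TPM under E and 175.4 TPM under EA in PAR while its medians over the lines were 5.88 and 7.78 TPM, so it passed the filter on levels through PAR and the untreated libraries (70 ± 84.3 TPM). It was higher in 7 of 8 lines and lower in Y821F (-0.24), with a mean change of 0.46 (adjusted p = 0.0468) and -0.19 in KD, and other type II keratins are close copies. SPP1, the secreted protein osteopontin, rose by 0.20 (adjusted p = 0.0317). Of the list of cell junctions and epithelial identity, CEACAM6 was the only one of 47 tested genes to rise and 0 fell, and the same held for 8 tested genes of lung epithelial and secretory differentiation. The number of CEACAM6, ITGA6, ANO1, KRT6A and SPP1 past the threshold ran from 1 without PAR, Y634F or Y643F (adjusted p from 0.0217 to 0.133) to 4 without Y726F or Y821F.

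**Figure D3:**
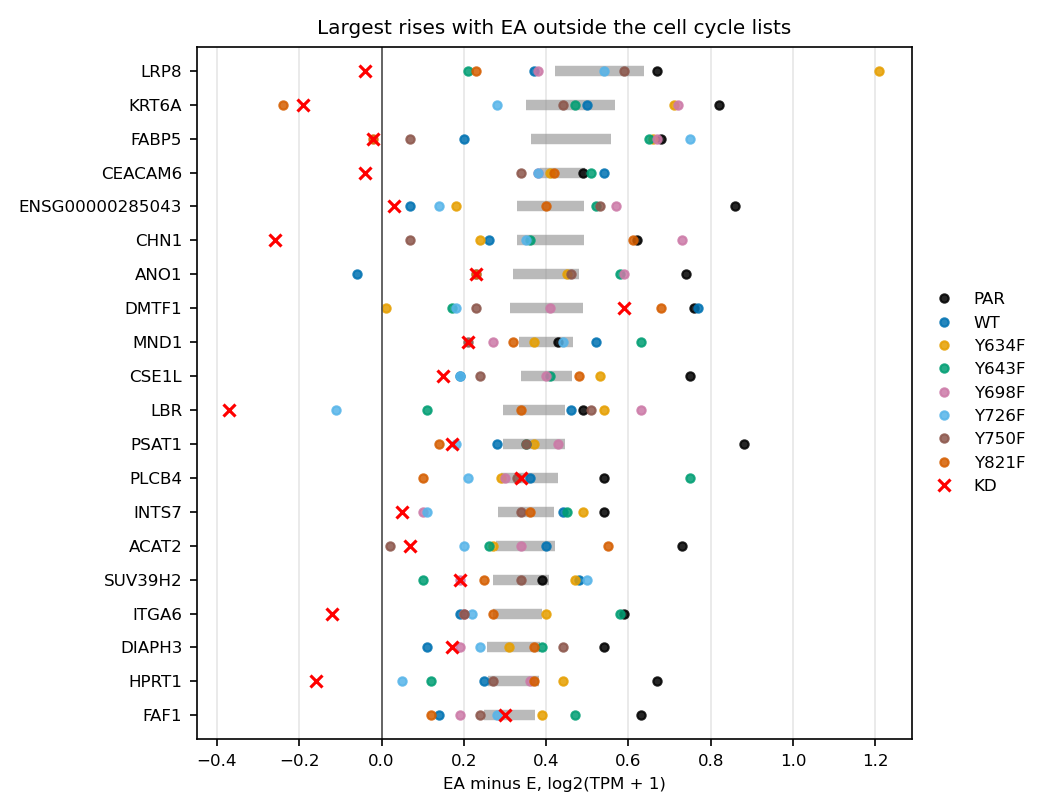
Change in log2(TPM + 1), EA minus E (horizontal axis), of the 20 genes outside the cell cycle lists with the largest rise; dots are the 8 lines, the grey bar is the mean ± its standard error from limma and the red cross is KD. Of these CEACAM6 has the tightest dots, from 0.34 to 0.54, with KD at -0.04, while in DMTF1, FAF1 and PLCB4 the KD cross lies among the dots.

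Cholesterol synthesis and uptake was the list outside the cell cycle with the highest median. Of its 30 tested genes 3 rose and 0 fell, and the median was 0.14 (all genes 0.016), above 0 in all 8 lines, from 0.01 in Y643F to 0.36 in PAR, and -0.02 in KD. ACAT2, which makes acetoacetyl-CoA, was at 16.9 to 25.1 TPM with E and 22.2 to 28.6 TPM with EA and rose in 8 of 8 lines by 0.02 in Y750F to 0.73 in PAR (mean 0.35, adjusted p = 0.0371). IDI1, an isomerase of isoprenoid synthesis, rose by 0.28 (adjusted p = 0.0332), and by 0.12 in Y750F to 0.54 in PAR across the lines, with -0.20 in KD. LRP8, a receptor for apolipoprotein E, was low with E (4.11 to 8.67 TPM) and with EA (6.73 to 11.6 TPM), and its rise of 0.53 (adjusted p = 0.0367) was largest in Y634F, at 1.21. Of 32 tested genes of fatty acid and lipid synthesis, FABP5, which carries fatty acids in the cytosol, and ME1, which makes NADPH, rose, and the median was 0.06. FABP5 went from 13.1 ± 2.99 to 18.8 ± 5.95 TPM (change 0.46, adjusted p = 0.0375), rising in 7 of 8 lines with -0.02 in Y821F, and it has many processed copies in the genome. The count of these 5 genes past the threshold ran from 0 without PAR, Y634F, Y643F or Y698F (adjusted p from 0.0563 to 0.135) to 3 without Y750F, and KD changed by -0.04, -0.02, 0.07, -0.20 and 0.04 for LRP8, FABP5, ACAT2, IDI1 and ME1.

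Among the targets of NRF2, the regulator of the defence against oxidants, single genes rose. Of 41 tested, GCLM, AKR1C1, ABCC2 and ME1 rose and 0 fell, and the median was 0.04. GCLM, the modifier subunit of the first enzyme of glutathione synthesis, was at 105 to 145 TPM with E and 142 to 182 TPM with EA (medians 132 and 154) and rose in all lines by 0.11 in Y698F to 0.43 in PAR (mean 0.28, standard error 0.041, adjusted p = 0.0115). It passed in 7 of 8 fits with a line left out, all but the one without Y634F (adjusted p = 0.0553). The promoter of GCLM is shown for its match to the antioxidant response element that NRF2 binds (ARE, TGACNNNGC, capitals), found in 15.7% of all promoters.
GCLM (chr1:93909431-93909494, minus strand): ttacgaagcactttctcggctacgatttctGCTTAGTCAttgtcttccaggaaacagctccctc
AKR1C1, an aldo-keto reductase with near-identical relatives among which reads could be divided, rose by 0.18 (adjusted p = 0.0194), and ABCC2, an efflux pump for conjugates, by 0.19 (adjusted p = 0.0461). ME1 had all its EA libraries, 70.3 to 78.6 TPM, above all its E libraries, 60.2 to 70.2 TPM, with a change of 0.16 (adjusted p = 0.0476). In KD the 4 genes changed by 0.10, 0.15, 0.07 and 0.04. Past the threshold with a line left out were from 0 without Y634F (adjusted p from 0.0553 to 0.135) to 2 without PAR, WT, Y698F, Y726F, Y750F or Y821F of the 4.

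In energy and serine metabolism single enzymes rose. LDHA (ENSG00000134333, chr11:18394388-18408425, plus strand), which turns pyruvate into lactate, was at 465 to 544 TPM with E (median 506) and at 548 to 619.7 TPM with EA (median 581). The groups did not overlap, every line rose by 0.12 in WT to 0.28 in Y634F, and the mean change was 0.20 (standard error 0.029, adjusted p = 0.0115), past the threshold in 7 of 8 fits with a line left out. The untreated level was 1123 ± 56.4 TPM, and KD changed by 0.11. ENO1, enolase, went from 573 ± 109.7 to 682 ± 192 TPM (change 0.23, adjusted p = 0.0236), with 0.00 in KD. ENSG00000285043, whose span overlaps that of the aldolase gene ALDOA, rose by 0.41 (adjusted p = 0.0332), and its reads cannot be told from those of ALDOA. Of 33 tested genes of glycolysis and hypoxia these 2, LDHA and ENO1, were called, and the median was 0.02. PSAT1, an enzyme of serine synthesis, rose by 0.37 (adjusted p = 0.0351), with 0.88 in PAR, and was the only one called of 28 tested genes of amino acid supply. IDH3A, of the citric acid cycle, rose by 0.21 and was the only one called of 60 tested nuclear genes of oxidative metabolism. The count of these 5 genes past the threshold ran from 0 without Y634F (adjusted p from 0.0553 to 0.118) to 4 without Y726F.

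Nuclear transport had the second highest list median outside the cell cycle, 0.13 over 41 tested genes, above 0 in all 8 lines, and 0.005 in KD. CSE1L, which returns importin α to the cytoplasm, was at 35.7 to 48 TPM with E and 47.7 to 60.6 TPM with EA, nearly without overlap, and rose by 0.19 in Y726F to 0.75 in PAR (mean 0.40, standard error 0.062, adjusted p = 0.0168). KPNA2, an importin α, rose by 0.26 (adjusted p = 0.0122), TNPO1, transportin, by 0.22 (adjusted p = 0.0236) and NUP50, of the nuclear pore, by 0.25 (adjusted p = 0.0375). All 4 rose in 8 of 8 lines. KPNA2 held the CHR element of genes of late cell cycle (TTTGAA, capitals), found in 8.93% of all promoters.
KPNA2 (chr17:68035606-68035671, plus strand): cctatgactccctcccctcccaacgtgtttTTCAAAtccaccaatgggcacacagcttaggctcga
LBR, the lamin B receptor of the inner nuclear membrane, was on no list and rose in 7 of 8 lines (mean 0.37, adjusted p = 0.0351). In KD the 5 changed by 0.15, 0.00, -0.02, -0.40 and -0.37, so NUP50 and LBR were lower there. The number past the threshold with a line left out went from 0 without Y634F or Y643F (adjusted p from 0.0546 to 0.0942) to 4 without WT, Y726F or Y821F.

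Lists of protein synthesis, folding and degradation had medians slightly above 0 in every line. The lowest, for cytosolic chaperones in Y726F, rounded to 0. Medians over all genes tested ran from -0.01 in Y821F to 0.05 in PAR. The list medians were 0.08 for aminoacyl-tRNA synthetases and initiation factors (43 tested), 0.07 for ribosome biogenesis (63), 0.08 for cytosolic chaperones (31), 0.06 for chaperones of the endoplasmic reticulum (32) and 0.10 for the proteasome (35). In KD the medians lay between -0.05 and 0.01. Of the 204 tested genes of these lists 11 (5.39%) passed the test, all higher with EA, against 0.98% of the genes outside the cell cycle lists. The lists were written with earlier results of these data known, so the difference in share was not tested. They were the initiation factor genes EIF2S2 (0.14) and EIF1AX (0.19), the isoleucyl-tRNA synthetase gene IARS1 (0.23), the nucleolar genes DDX18 (0.23) and NCL (0.20), RANBP1 (0.20), SSR3 (0.19), the chaperone genes HSP90B1 (0.15), HSP90AA1 (0.20) and CCT5 (0.16), and the proteasome gene PSMD12 (0.25). NCL, nucleolin, was at 304 to 356 TPM with E and 334 to 396 TPM with EA, rose in 8 of 8 lines (adjusted p = 0.0158) and passed in 7 of 8 fits with a line left out. SRRM1 (0.26, adjusted p = 0.0458) was the only one called of 69 tested splicing genes. Of these 12 genes the number past the threshold ran from 0 without Y634F (adjusted p from 0.0649 to 0.118) to 7 without Y726F.

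The largest rises also held genes of signalling and of nuclear processes. CHN1, an activating protein of the GTPase Rac, was at 5.17 to 13.1 TPM with E and 8.48 to 15.3 TPM with EA and rose in 8 of 8 lines (mean 0.41, adjusted p = 0.0351), with -0.26 in KD. PLCB4, a phospholipase C, rose by 0.36 and FAF1, a partner of FAS, by 0.31 (adjusted p = 0.0323 and 0.0351), and KD changed by a like amount, 0.34 and 0.30. DMTF1, a transcription factor that binds cyclin D, rose by 0.40 (adjusted p = 0.0412), from 0.01 in Y634F to 0.77 in WT, and by 0.59 in KD. HPRT1, of purine salvage, had no overlap, with 38.8 to 45.8 TPM with E and 46.7 to 68.9 TPM with EA, and rose by 0.32 (adjusted p = 0.0323), with -0.16 in KD. INTS7, of the Integrator complex, rose by 0.35. The count of these 6 past the threshold with a line left out ran from 0 without PAR, Y634F or Y643F (adjusted p from 0.0571 to 0.0988) to 6 without Y726F.

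Not every gene outside the lists is unrelated to proliferation. MND1 (0.40), which acts in strand exchange, the formin DIAPH3 (0.32), the histone methyltransferase SUV39H2 (0.34), the chromatin protein DEK (0.27), the histone acetyltransferase HAT1 (0.26) and PRR11 (0.25) are known to be higher in dividing cells and were on no cell cycle list, though DIAPH3 was on that of actin and SUV39H2, the only one called of 58 tested, on that of chromatin modifiers. All 6 rose in 8 of 8 lines, and all 6 were also higher with EA in KD, by 0.05 to 0.21. The promoter of MND1 held an E2F match and that of PRR11 a CHR match (capitals), the motifs of early and late cell cycle genes.
MND1 (chr4:153344624-153344687, plus strand): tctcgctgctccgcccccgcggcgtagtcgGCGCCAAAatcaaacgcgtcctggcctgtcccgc
PRR11 (chr17:59155705-59155745, plus strand): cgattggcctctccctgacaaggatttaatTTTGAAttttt
DEK was at 52.2 to 87.7 TPM with E and 64.7 to 107 TPM with EA (standard error 0.036, adjusted p = 0.00911) and, with CEACAM6, passed in all 8 fits with a line left out. MND1 was at 7.38 to 11.4 TPM with E and 10.3 to 14.9 TPM with EA (adjusted p = 0.0194). The number of the 6 past the threshold ran from 1 without Y634F or Y643F (adjusted p from 0.0357 to 0.0921) to 5 without Y726F. Of the 86 rises 32 were on one of the 34 lists outside the cell cycle and 54 on none, and HMGB1P6 among them is a processed pseudogene whose reads may come from HMGB1.

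In 10 lists with tested genes no member passed, and their medians ran from -0.11 for TAM receptors and ligands to 0.12 for the mitochondrial genome, which had 0.12 in KD. AXL was at 245 to 852 TPM with E and 232 to 849 TPM with EA, changed by -0.13 (adjusted p = 0.0593) and by 0.03 in KD. In the transduced lines this sum can hold RNA from the virus and from the edited gene, which cannot be told apart. The AXL knockout line still had 79.3 TPM with E. In PAR, with its own AXL gene only, the change was -0.08. GAS6 changed by -0.09 (adjusted p = 0.215) and TYRO3 by -0.04 (adjusted p = 0.838). MERTK and PROS1 were too low for the test, at 1.93 ± 0.342 and 2.86 ± 1.03 TPM with E and 2.16 ± 0.639 and 2.67 ± 1.12 TPM with EA. In the list of ERK feedback genes and in that of AP-1 genes FOSL1 came nearest, at 9.92 to 23.9 TPM with E and 17.2 to 29.2 TPM with EA (change 0.33, adjusted p = 0.056, higher in 8 of 8 lines), with -0.65 in KD and 223 ± 17.5 TPM untreated. SLC20A1 changed by 0.18 and KLF6 by 0.21 (adjusted p = 0.215 and 0.0659). Among cytokines and targets of NF-κB, IL32 changed by -0.15 (adjusted p = 0.0507, lower in 8 of 8 lines) and SAA1 by -0.24 (adjusted p = 0.058). The other lists gave SHC1 (0.16) and CBLC (-0.13) for ERBB signalling, GADD45B (-0.20) for YAP targets, LGALS3 (-0.13) beside AXL for TAM receptors and ligands, IFI6 (-0.21) and IFI35 (-0.14) for interferon, HLA-C (-0.10) and ERAP2 (0.12) for antigen presentation, MUC4 (-0.26) and STAT6 (-0.09) for STAT3, and MT-CYB (0.16) and MT-ND4 (0.16) for the mitochondrial genome, with adjusted p from 0.0978 to 0.206 for these apart from 0.0645 for LGALS3 and 0.069 for MUC4. The 30 listed long noncoding RNAs were not analysed here.

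**Figure D4:**
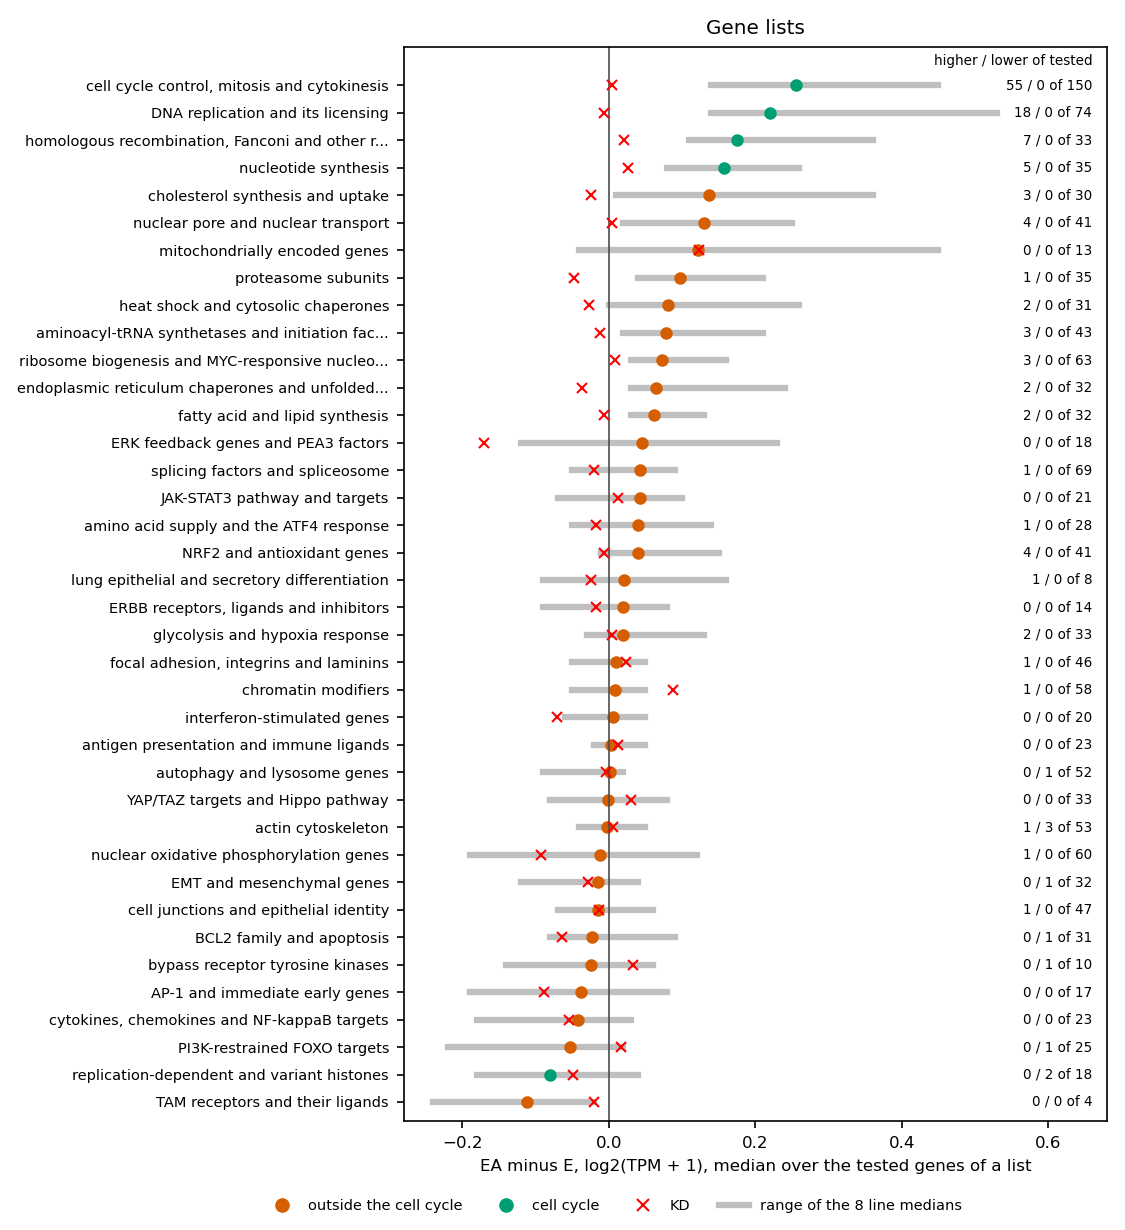
Median change in log2(TPM + 1), EA minus E, over the tested genes of each list (dots; green for cell cycle lists), with the range of the 8 line medians in grey and KD as a red cross; the numbers give genes called higher and lower of those tested. The 4 cell cycle lists other than histones lie at 0.16 to 0.26, cholesterol and nuclear transport at 0.14 and 0.13, and most other lists within 0.1 of 0.

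The KD pair was not part of the test that called the genes, though its libraries counted in the filter on levels. In KD the called genes moved little. The 43 fallers had a median change of -0.05 in KD, with 27 lower and 16 higher, where 49.3% of all genes tested were lower. The 86 risers outside the cell cycle had a median of 0.04, with 55 higher and 31 lower (64% higher, against 50.7% of all genes), and the 85 risers on the cell cycle lists had 0.02, with 50 higher. In the 8 lines the medians of the fallers ran from -0.34 in PAR to -0.12 in Y726F and those of the 86 risers from 0.15 in Y726F to 0.33 in PAR. The genes were called for their change in these 8 lines, which enlarges the medians there but not in KD. The gap between them is therefore no measure of what the kinase does. With a single KD pair the difference between KD and the 8 lines was weakly measured. In limma with a term for KD, 0 genes passed an adjusted p under 0.05 (0%) and 300 had an unadjusted p under 0.05 (3.3% of those tested), and in no alternative but the one without a filter on levels did any pass. The 5 genes with the smallest p were SVIP, which changed by -1.28 in KD and 0.16 in the 8 lines (adjusted p = 0.47 from limma), IFT122 (1.03 and 0.03), ODF3B (1.08 and -0.37), RAB11FIP4 (0.55 and -0.21) and TECPR1 (-1.21 and 0.21). Among the called genes the largest opposite changes in KD were those of DONSON (-0.51), NUP50 (-0.40) and CENPK (-0.40), which rose in the 8 lines, and FGFR1 (0.52), GNPTG (0.22) and VPS51 (0.19), which fell.

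**Figure D5:**
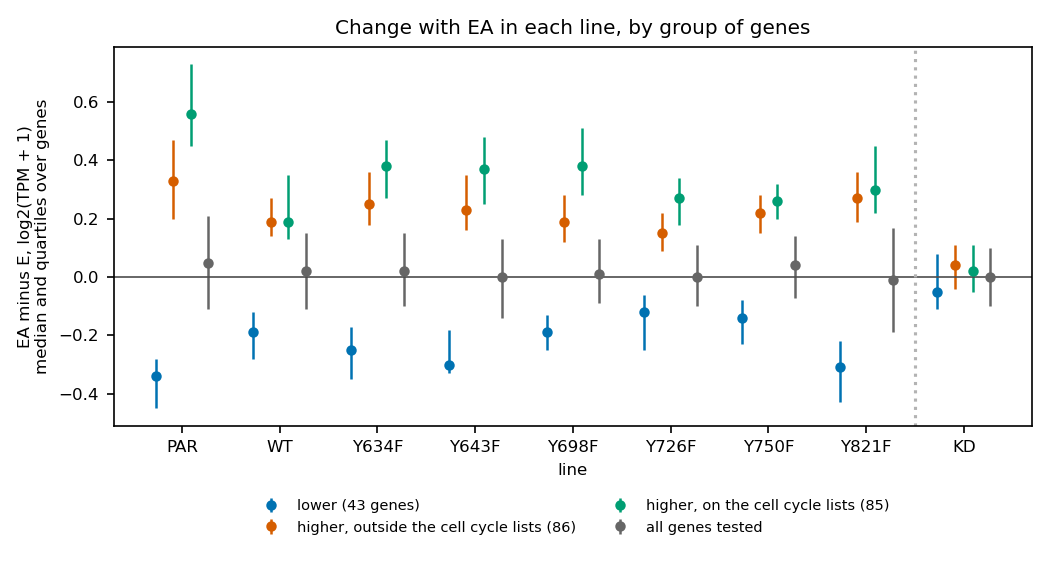
Median and quartiles over genes of the change in log2(TPM + 1), EA minus E, in each line for the 43 fallers, the 86 risers outside the cell cycle lists, the 85 risers on them and all 9085 genes; the genes were called on the 8 lines left of the dotted line. In KD the 3 called groups lie at -0.05, 0.04 and 0.02, near all genes at 0.

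PAR had the largest median changes of the 8 lines in each of the 3 called groups. A term for PAR against the other 7 lines gave 0 genes at an adjusted p under 0.05 (0%) and 864 at an unadjusted p under 0.05 (9.51%). The smallest adjusted p was 0.131, shared by CENPW (1.07 in PAR), MTREX (0.96), YPEL3 (-0.85), MAP3K12 (-1.39) and SMC4 (1.09). CENPW and SMC4 act in mitosis and MTREX in RNA decay, while MAP3K12 is a kinase. Of these SMC4 was itself called over the 8 lines (0.42, adjusted p = 0.0332). Between fallers, MYL9 and H1-2 had the smallest p for PAR, with a difference of -0.50 for each (adjusted p = 0.204 and 0.3).

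The promoter windows described above were searched for 11 motifs on both strands, and 31 of the 43 fallers, 71 of the 86 risers outside the cell cycle, 70 of the 85 risers on its lists and 7355 genes tested had an entry. The motifs were E2F (TTTGGCGC, TTTCGCGC or TTTCCCGC), the CHR element of genes of late cell cycle (TTTGAA), NF-Y (CCAAT), TEAD (GGAATG), AP-1 (TGANTCA), CRE (TGACGTCA), FOXO (GTAAACA), ETS (CCGGAAG), E-box (CACGTG), SRE (TCACNCCAC) and ARE (TGACNNNGC), and AP-1 and ARE overlap in 34 promoters. CHR was found in 41.4% of the cell cycle risers, 11.3% of the other risers and 9.68% of the fallers, against 8.93% of all. NF-Y was found in 62.9%, 39.4% and 35.5%, against 36.8%. E2F was found in 18.6% and 12.7% of the risers, in 0 of 31 fallers and in 5.04% of all. FOXO was in 0 of 31 fallers (2.13% of all), TEAD in 12.9% (10.5%), ETS in 22.6% (22.1%), E-box in 16.1% (10.6%), ARE in 22.6% (15.7%) and AP-1 in 3.23% (4.17%), and CRE and SRE were in none. In the risers outside the cell cycle these shares were 2.82% for FOXO, 15.5% for TEAD, 16.9% for ETS, 14.1% for E-box, 16.9% for ARE, 5.63% for AP-1, 4.23% for CRE and 0% for SRE. These shares are descriptions of letters in a window.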

How the data were processed

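RNA of 10 PC9 lines was sequenced as poly(A) libraries, and the authors deposited a table of TPM per transcript for 29 libraries (188753 transcripts). The submitters' processing notes name kallisto and GRCh38, and the annotation and strand setting are not given in the sources used here. A deposited TPM keeps no depth, so counting error is unknown and precision comes from the spread between lines. The table's 29 library names were matched to GEO's labels.

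By transcript identifier (version ignored) 169797 transcripts were found in GENCODE 29, holding 97% to 97.4% of TPM, and were added up over 35579 genes, while 18956 were left out. Gene coordinates are GENCODE 29 on GRCh38. The 9085 genes whose mean over all 29 libraries reached 10 TPM were tested as log2(TPM + 1), E against EA in 8 lines, with limma 3.58.1 (R 4.3.3; eBayes with trend), line as block and a Benjamini-Hochberg threshold of 0.05. E and EA of a line are the same cells, which pairs them. KD and PAR were compared with the other lines by an interaction term. Tables and figures used Python 3.11.15, pandas 2.3.3, numpy 2.4.6 and matplotlib 3.10.9. Of 200 genes changed by 0.3 or 0.5 (log2) in simulated data of 9085 genes, 125 and 182 were called, with 6 and 10 unchanged genes, and 0 with nothing changed. The noise was drawn for each gene apart, so shifts shared by the genes of a library were not simulated.

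The genes compared and the gene lists (5 cell cycle, 34 other, 5 marker lists) were chosen with earlier results of these data known. The named genes are AXL, TYRO3, MERTK, GAS6 and PROS1, every gene that fell, the 20 largest rises outside the cell cycle lists, each called member of the other lists or else the 2 tested members with the smallest p, the 3 rises and 3 falls with the largest opposite change in KD, and the 5 smallest p for KD and for PAR. SPP1, DEK, HAT1, PRR11, HMGB1P6 and RAP1GDS1, the function groups and the promoters printed were chosen after the values were seen, and 1 gene that fell is not reported here. The alternatives were 4 other filters, a pseudocount of 0.1, median centring, quantile normalization, mitochondrial genes left out, no block, quality weights, KD as a further line, limma's treat against 0.1, no trend, and each line left out.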

Additional observations from a re-analysis of the deposited data

Results flagged for a closer look

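In 16 of 120 values checked (13.3%) the highest or lowest of the 8 lines lay far from the other 7, with a gap to the nearest line above 0.526 of the whole range. For a single value that was not selected, chance gives about 1 in 20. The values checked share their libraries, and some genes were chosen for a difference in PAR, so that rate does not apply to them. PAR was that line in 10, Y821F in 3, and Y634F, Y698F and Y750F in 1 each, and the causes were not tested. Changes are EA minus E in log2(TPM + 1), followed by the nearest other line.

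In PAR, ATG9B changed by -0.97 (nearest -0.51), MYL9 by -0.70 (-0.26), PLAAT3 by -0.43 (-0.24) and PSAT1 by 0.88 (0.43). Of the genes with the smallest p for PAR, which were chosen for a difference in PAR, CENPW changed there by 1.07 (0.25), MTREX by 0.96 (0.21), YPEL3 by -0.85 (-0.31), MAP3K12 by -1.39 (-0.38) and SMC4 by 1.09 (0.50). The mitochondrial share of TPM with E was 17.36% in PAR (14.23%).

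In Y821F, ENSG00000223804 changed by -0.98 (-0.46), IFI35 by -0.54 (-0.17) and HLA-C by -0.28 (-0.13), in the line whose EA library had a mitochondrial share of 17.4%. LRP8 changed by 1.21 in Y634F (0.67), PSMD12 by -0.07 in Y698F (0.19) and CENPK by -0.07 in Y750F (0.28).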

How the results depend on the processing

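Counts of genes called moved with most settings, given here as genes in all, higher and lower, then higher and lower outside the cell cycle lists, against 214, 171, 43, 86 and 41. With a line left out they ran from 10 to 188, 10 to 146, 0 to 42, 3 to 80 and 0 to 40, lowest without Y634F (10, 10, 0, 3 and 0, with 1556 genes at an unadjusted p under 0.05) and Y643F (18, 18, 0, 5 and 0, with 1599). Without PAR they were 55, 49, 6, 21 and 6 and without Y698F 55, 48, 7, 26 and 7. KD as a ninth line gave 120, 98, 22, 50 and 21. A filter at a mean of 1 TPM gave 67, 58, 9, 24 and 9 of 14111 genes, and no filter 9, 8, 1, 3 and 1 of 25316, with 16 genes for KD and 283 for PAR. No trend gave 17 lower genes, all outside the lists, median centring 72 and 70 lower, leaving out mitochondrial genes 263 and 147 higher, and quantile normalization 53 higher outside the lists. A test against a change of 0.1 with limma's treat called 0 genes, with 495 at an unadjusted p under 0.05. The PAR comparison ran from 0 to 1 genes with a line left out.

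E and EA of a line are paired, and with no replicate block 9, 9, 0, 2 and 0 genes were called, and 0 for KD and for PAR. Of 2439 values of 117 named genes under the alternatives, 1449 kept direction and side of the threshold, 973 fell short of it, 15 newly passed and 2 turned direction. These were TYRO3, from -0.09 to 0.03 with a line left out and 0.03 without Y821F, and SVIP, at -0.0029 with KD as a ninth line. The depth behind the values is unknown. In simulated data of this design, without shifts shared by the genes of a library, 125 of 200 genes changed by 0.3 were called. Changes of that size can thus be missed, and so can smaller ones such as the median change of the fallers.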
